A study of Rattus norvegicus with 6 samples.

Results

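The respiratory chain subunit genes were described across RNA labelled as kidney from Han:SPRD rats, a strain in which the Cy allele gives polycystic kidney disease. Members were taken by gene name. They were the probes other than controls whose name began with Nduf, Uqcr, Sdha, Sdhb, Sdhc, Sdhd or Atp5, or with Cox and a digit of the subunit series, any _predicted or _mapped ending removed. This gave 81 of 41012 probes and 71 of 35561 gene names. By complex, 32 names belonged to complex I, 4 to complex II, 5 to complex III, 16 to complex IV and 14 to complex V.

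The study hybridised 6 arrays, one for each genotype at 3 days and one for each at 7 days of age. By the labels, the Cy5 channel held pooled renal RNA of Cy/Cy (homozygous), Cy/+ (heterozygous) or +/+ (wild-type) rats. The Cy3 channel of every array was labelled as pooled renal RNA of age-matched +/+ rats and served as the reference. No array had the dyes swapped, so a dye effect of a single probe and a difference between the samples cannot be told apart. The number of rats in a pool is not given in the sources used here, and each group had 1 array at each age. Its 2 arrays therefore differ in age, and no group was repeated at the same age. The spread behind the p-values is pooled over the groups in each fit, after the age term where one was fitted, and moderated over all probes.

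The respiratory chain passes electrons from NADH through complex I, or from succinate through complex II, to complexes III and IV, where they reduce oxygen. The protons pumped on the way drive complex V, the ATP synthase. In the kidney the chain is most abundant in the proximal tubule and the thick ascending limb, whose salt and solute transport uses much ATP. Several small subunits of complex IV exist in a widely expressed form and in a form of heart and skeletal muscle, each encoded by its own gene.

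The 71 names were not all subunits. Ndufaf1 is an assembly factor of complex I, Cox7a2l helps complexes III and IV to join, Atp5s is a coupling factor of the ATP synthase, and Cox4nb encodes a protein of the endoplasmic reticulum that is not in the chain. The probe named Cox6b was described in the array design as similar to uroplakin Ia, and Cox6c1 is a pseudogene of Cox6c in the current gene table. These 6 names are given apart. Of the 65 subunits, 4 are tissue-type isoforms (Cox6a2 and Cox8h of muscle, Cox4i2 of lung, Cox6b2 of testis), which left 61 widely expressed subunits. Cox8h is the array's older name for Cox8b. No member carried the names Cox7a1, Cox7b2, Cox8c or Ndufa4l2.

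All 81 probes passed the filter, which asked for a channel well above background on at least 2 arrays, as did 30934 of all probes. Of the members, 77 were well above background in all 12 channels and none was saturated. Each gene is represented by its brightest probe. Ratios are log2(Cy5/Cy3) after loess normalization, so 0 means the level of the +/+ reference. The spread of log2 ratios over all probes was 0.16 to 0.17 (SD) on the Cy/Cy arrays, 0.24 to 0.32 on the Cy/+ arrays and 0.94 to 1.1 on the arrays labelled +/+.

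The arrays labelled +/+ went against their label. All 10 measured skeletal muscle markers and all 7 heart markers were higher in their Cy5 channel than in the Cy3 reference, with median log2 ratios of 4.08 and 3.93. All 4 measured fat markers (4.50) and all 4 liver markers (4.52) were higher too. All 6 proximal tubule markers (-3.19) and all 4 thick ascending limb markers (-3.99) were lower. In pooled whole-tissue RNA, fewer cells of a type and less RNA per cell cannot be told apart. On the mutant arrays the median proximal tubule ratio lay between -0.04 and 0.25. These Cy5 samples are called the arrays labelled +/+, and every result that uses them is kept apart from the comparison of each mutant pool with its own reference.

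The muscle-type isoforms of complex IV had the widest range of all members. Cox6a2 replaces Cox6a1 in heart and skeletal muscle, and Cox8h replaces Cox8a there and, in rodents, also in brown fat. The probes that carry these names are shown because these members had the largest ratios. The array holds 3 probes named Cox8h. The first lies on the minus strand of chromosome 1 (rn3, chr1:201207352-201207411), and the second on the plus strand beside it (chr1:201207391-201207450). The last of the 3, also on the plus strand, spans chr1:201207411-201208612 in pieces. Capitals mark the 21 bases that the first probe shares, as reverse complement, with the second. The plus-strand probes share 40 bases on the same strand.
Cox8h, minus strand: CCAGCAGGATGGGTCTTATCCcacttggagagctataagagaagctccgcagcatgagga
Cox8h, plus strand, second probe: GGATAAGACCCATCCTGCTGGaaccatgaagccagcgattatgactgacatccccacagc
Cox8h, plus strand, last probe: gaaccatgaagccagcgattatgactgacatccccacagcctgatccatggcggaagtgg
The single Cox6a2 probe lies at chr1:187614813-187614872 on the minus strand (rn3). The longest run it shares with the Cox6a1 probe is 5 of 60 bases, and that between the brightest Cox8h probe and the Cox8a probe is 6 bases.
Cox6a2, minus strand: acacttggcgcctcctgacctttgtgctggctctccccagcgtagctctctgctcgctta

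In Cy/Cy kidneys the Cox6a2 ratios were -0.02 at 3 days and 0.12 at 7 days. In Cy/+ kidneys they were -0.01 and -0.11, and on the arrays labelled +/+ they were 3.91 and 3.89. The mutant arrays thus stood at the reference level and both arrays labelled +/+ far above it. Over the 2 ages, the arrays labelled +/+ exceeded their reference by 3.90 ± 0.09 (SE, limma adjusted p = 2.91e-06), a 14.9-fold difference. Against the arrays labelled +/+, Cox6a2 stood at -3.85 ± 0.12 in Cy/Cy kidneys (adjusted p = 8.14e-05 in limma) and at -3.96 ± 0.12 in Cy/+ kidneys (adjusted p = 8.07e-05 in limma). Against their own reference, Cy/Cy (0.05 ± 0.08) and Cy/+ kidneys (-0.06 ± 0.08) did not pass the test.

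Read by the brightest of its probes, Cox8h gave 1.29 at 3 days and -0.01 at 7 days in Cy/Cy kidneys. The Cy/+ ratios were 2.29 and -0.19, and those of the arrays labelled +/+ were 5.91 and 5.65. The 3-day mutant arrays lay above the reference and the 7-day ones at it, while both arrays labelled +/+ lay above all 4. The arrays labelled +/+ exceeded their reference by 5.78 ± 0.57 (SE, limma adjusted p = 0.000491). Cy/Cy kidneys stood at -5.14 ± 0.49 (adjusted p = 0.00151 in limma) and Cy/+ kidneys at -4.73 ± 0.49 (adjusted p = 0.00206 in limma) against the arrays labelled +/+. Against their own reference, neither Cy/Cy (0.64 ± 0.55, limma adjusted p = 0.738) nor Cy/+ kidneys (1.05 ± 0.55, limma adjusted p = 0.257) passed the test. Without the 7-day Cy/+ array the Cy/+ value was 2.29 and passed (limma adjusted p = 0.00661), the lone array being assumed to vary like the others, and without the 3-day Cy/+ array it was -0.19.

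The scanner signals behind the Cox8h ratios, less local background and not normalized, were 265 (Cy5) and 51.7 (Cy3) on the 3-day Cy/Cy array, and 629 and 56.5 on the 3-day Cy/+ array. At 7 days they were 59 and 44.1 on the Cy/Cy array and 45.1 and 44.8 on the Cy/+ array. On the arrays labelled +/+ they were 93400 and 626 at 3 days and 61300 and 645 at 7 days. The Cy3 channel, which should hold the same kind of pool on all 3 arrays of an age, was thus also brighter on the arrays labelled +/+. After normalization it exceeded the mean of the mutant arrays' Cy3 channels by 2.81 (3 days) and 3.47 (7 days) on the log2 scale for Cox8h, and by 1.20 and 1.95 for Cox6a2. No widely expressed subunit differed by over 1 in this way at either age, against 1.05% of all probes at 3 days and 1.47% at 7 days. The contrasts of the mutants with the arrays labelled +/+ are differences of ratios, so for both genes the brighter Cy3 channel makes them smaller than the differences in Cy5 level. The normalized log2 Cy5 levels of Cox8h at 3 and 7 days were 8.04 and 6.85 in Cy/Cy and 9.05 and 6.69 in Cy/+ kidneys, against 15.48 and 15.99 on the arrays labelled +/+. Whether the Cy3 signal of these genes came from the reference RNA or from the much brighter Cy5 channel was not tested.

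The plus-strand probes of Cox8h lie on the strand opposite to the first probe and to the annotated Cox8b gene. Which transcript they read was not tested. They were dimmer and read high on the arrays labelled +/+ only. The last probe had 0.23 and -0.01 in Cy/Cy and 0.06 and 0.17 in Cy/+ kidneys at 3 and 7 days, against 2.13 and 2.87 on the arrays labelled +/+. The second was at background in all mutant pools and in the Cy3 channels of those arrays, and its level on the arrays labelled +/+ was at least 5.82-fold that of the reference. Cy/Cy kidneys were at least 7.62-fold lower and Cy/+ kidneys at least 7.06-fold lower than those arrays. Such bounds set the bright group's mean against the mean over arrays of the higher of the dim probe's own signal and the lowest signal among probes well above background. On the 3-day Cy/+ array, where the first probe gave 2.29, the last gave 0.06 and the second -0.02.

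**Figure D1:**
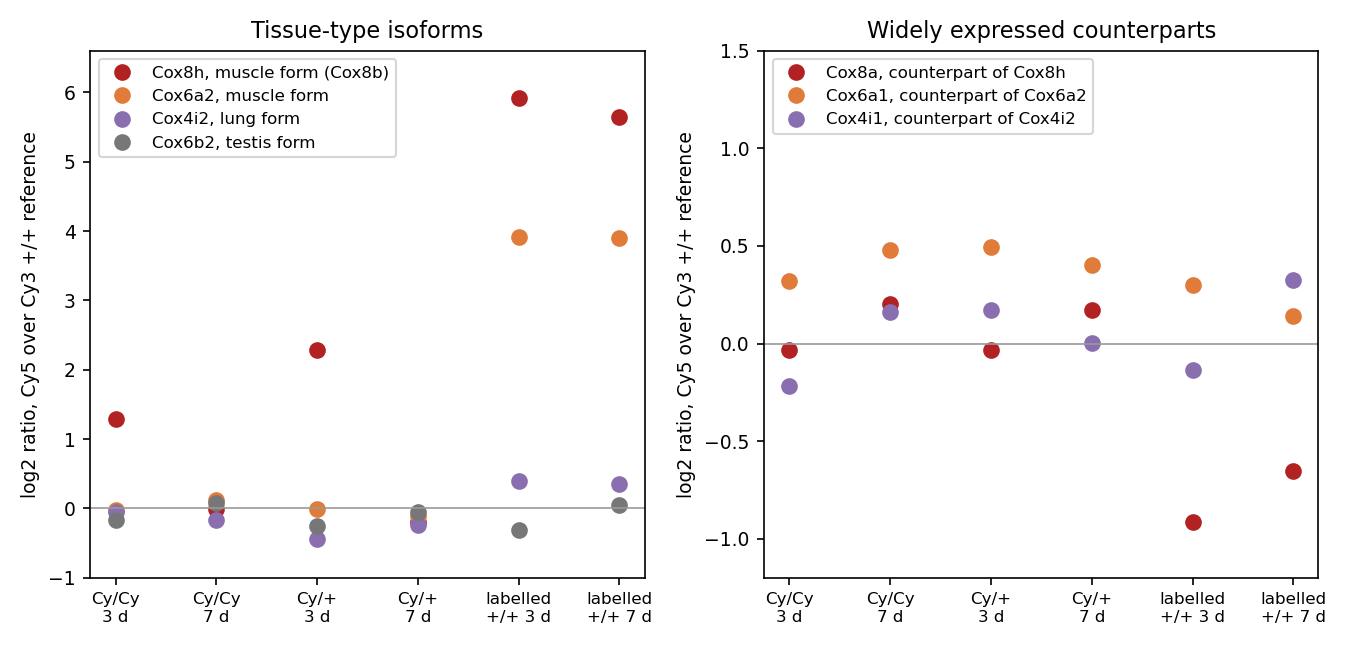
Log2 ratio of Cy5 over the Cy3 +/+ reference on each of the 6 arrays for the tissue-type isoforms (left) and their widely expressed counterparts (right), 1 point per array, with different vertical scales. Cox8h and Cox6a2 reach 5.91 and 3.91 on the 3-day array labelled +/+, where their counterpart Cox8a falls to -0.92 and Cox6a1 stays at 0.30.

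Of the widely expressed counterparts, Cox8a gave -0.03 at 3 days and 0.20 at 7 days in Cy/Cy kidneys, -0.03 and 0.17 in Cy/+ kidneys, and -0.92 and -0.65 on the arrays labelled +/+. It was lower on the arrays labelled +/+ than in their reference (-0.79 ± 0.11, limma adjusted p = 0.0023) and higher than there in Cy/Cy (0.87 ± 0.11, 0.00415) and Cy/+ kidneys (0.86 ± 0.11, 0.00447). Against their own reference Cy/Cy (0.09 ± 0.09) and Cy/+ kidneys (0.07 ± 0.09) did not pass. Cox6a1 had 0.30 at 3 days and 0.14 at 7 days on the arrays labelled +/+, and 0.22 ± 0.09 did not pass against their reference (limma adjusted p = 0.0958). Centring each array on its median in place of loess turned the Cox8a value on the arrays labelled +/+ to 0.18.

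The lung form Cox4i2 had log2 ratios of -0.05 and -0.17 in Cy/Cy kidneys, -0.44 and -0.24 in Cy/+ kidneys, and 0.40 and 0.35 on the arrays labelled +/+ at 3 and 7 days. It was higher on the arrays labelled +/+ than in their reference (0.37 ± 0.09, limma adjusted p = 0.0179), and lower than there in Cy/Cy (-0.48, 0.0489) and Cy/+ kidneys (-0.71, 0.0144). The Cy/+ value against its own reference was -0.34 ± 0.08 (limma adjusted p = 0.0574) and did not pass. Its counterpart Cox4i1 lay between -0.22 and 0.32 on the 6 arrays, with both signs in the Cy/Cy arrays and on the arrays labelled +/+. The testis form Cox6b2 lay between -0.32 and 0.08 and passed no test. All 3 calls of Cox4i2 ended with the log ratios of the software, at 0.12 for the arrays labelled +/+ over their reference.

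Markers of brown fat and fat were also above the reference at 3 days. In Cy/+ kidneys at 3 days the brown fat uncoupling protein Ucp1 had a log2 ratio of 3.04, Cidea 2.01 and the fat hormone Adipoq 2.84, beside 2.29 for Cox8h. In Cy/Cy kidneys at 3 days the values were 1.28, 0.70 and 0.69, beside 1.29 for Cox8h. At 7 days Ucp1 had 0.46, Cidea 0.10, Adipoq 0.97 and the fat marker Fabp4 0.81 in Cy/Cy kidneys, where Cox8h had -0.01. In Cy/+ kidneys at 7 days they had -0.10, 0.12, -0.12 and 0.43, and Cox8h had -0.19. The Adipoq ratio in Cy/Cy kidneys was thus higher at 7 days than at 3 days, unlike that of Cox8h. Its normalized log2 Cy5 level there was 9.43 at 3 days and 9.21 at 7 days, so the level itself did not rise. All 3 brown fat markers passed the filter, and their summed log2 level in Cy/+ kidneys at 3 days was 12.26, against 9.72 in the reference on that array. In Cy/Cy kidneys at 3 days it was 10.43, against 9.52. Elovl3, also on that list, was well above background in none of the 4 mutant Cy5 channels. On the 3-day Cy/+ array the fat markers Fabp4, Cfd and Plin1 had 2.19, 1.47 and 0.48. No brown fat or fat marker passed the test against the reference in either mutant group. The 10 measured skeletal muscle markers had a median of 0.07 on the 3-day Cy/Cy array, with a summed log2 level of 10.44 against 10.48 in the reference. On the 3-day Cy/+ array their median was 0.13 and their summed level 10.83, against 10.44 in the reference. They ran there from -0.25 (Actn3) to 1.39 (the troponin Tnnc2), with Acta1 at 0.62, Tnni2 at 0.58, Ckm at 0.30 and the oxygen-binding Mb at 0.09. At 7 days their median was -0.40 in Cy/Cy and -0.50 in Cy/+ kidneys. The part of fat or muscle in the Cox8h ratios was not tested.

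**Figure D2:**
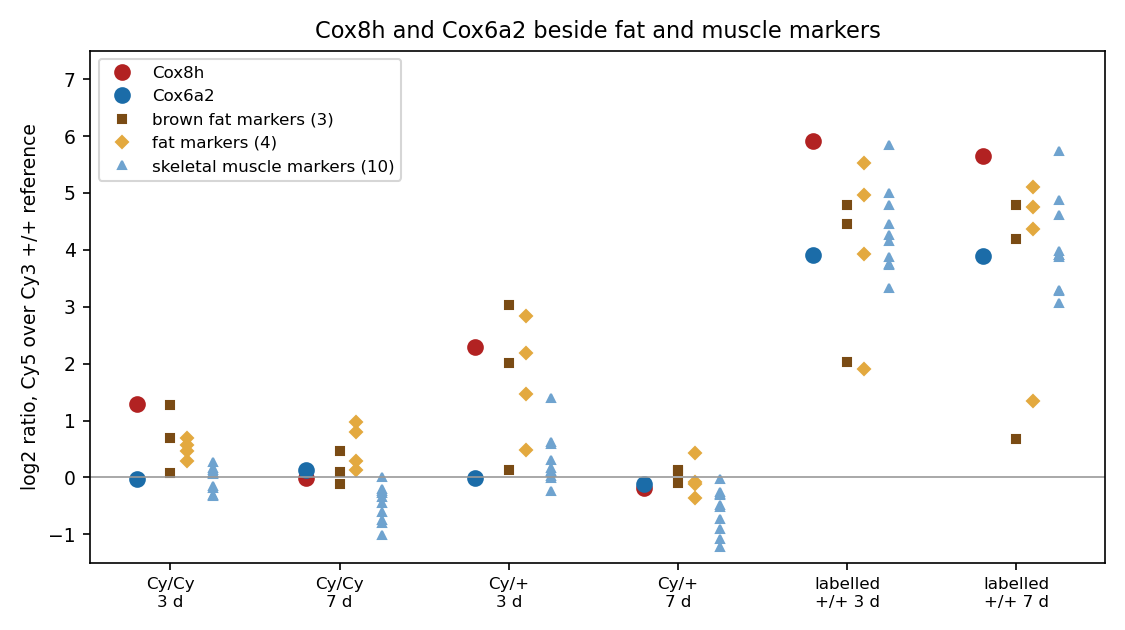
Log2 ratio of Cy5 over the Cy3 +/+ reference on each of the 6 arrays for Cox8h and Cox6a2 (circles), the 3 brown fat (squares), 4 fat (diamonds) and 10 skeletal muscle markers (triangles) that passed the filter, 1 point per gene and array. On the 3-day Cy/+ array Cox8h (2.29) lies among Ucp1 (3.04), Adipoq (2.84), Fabp4 (2.19) and Cidea (2.01). The other fat and brown fat markers lie lower, Cfd at 1.47, Plin1 at 0.48 and Elovl3 at 0.13. Cox6a2 lies at -0.01, and the skeletal muscle markers run from -0.25 to 1.39 with a median of 0.13.

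The promoters of Cox6a2, Cox8b and Cox8a are shown because the muscle forms and the widely expressed form moved apart on the arrays labelled +/+. Sequences are RefSeq's, from GRCr8, and run from 250 bases before to 50 bases after the annotated start. Capitals mark matches on either strand to 4 motifs: CCGGAAG (bound by ETS factors), the motif of NRF1, TATAAA and CAGCTG (an E-box). The stretches lie at chr1:192219667-192219966 for Cox6a2, chr1:205408224-205408523 for Cox8b and chr1:213833574-213833873 for Cox8a, all on the minus strand.
Cox6a2: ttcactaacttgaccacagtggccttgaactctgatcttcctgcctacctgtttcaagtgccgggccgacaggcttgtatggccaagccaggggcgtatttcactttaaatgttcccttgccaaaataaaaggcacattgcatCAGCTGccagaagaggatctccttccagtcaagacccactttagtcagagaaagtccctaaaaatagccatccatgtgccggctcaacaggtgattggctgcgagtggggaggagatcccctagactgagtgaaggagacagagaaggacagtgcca
Cox8b: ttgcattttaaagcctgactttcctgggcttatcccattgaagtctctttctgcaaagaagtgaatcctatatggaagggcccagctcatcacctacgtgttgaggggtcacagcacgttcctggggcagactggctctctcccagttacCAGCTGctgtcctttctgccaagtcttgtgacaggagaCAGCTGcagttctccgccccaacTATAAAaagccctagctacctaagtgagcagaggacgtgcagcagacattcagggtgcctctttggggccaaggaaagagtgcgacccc
Cox8a: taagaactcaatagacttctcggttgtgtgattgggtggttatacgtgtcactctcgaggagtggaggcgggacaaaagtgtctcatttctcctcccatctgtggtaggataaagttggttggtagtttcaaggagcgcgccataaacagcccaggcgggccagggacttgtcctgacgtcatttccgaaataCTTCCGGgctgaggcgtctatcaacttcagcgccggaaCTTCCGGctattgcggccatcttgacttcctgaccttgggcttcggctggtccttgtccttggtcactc
Cox8b held TATAAA once and CAGCTG at 2 places, and Cox6a2 held CAGCTG once. Cox8a held neither of these and had CCGGAAG at 2 places. CpG dinucleotides numbered 5 in Cox6a2, 5 in Cox8b and 16 in Cox8a. A promoter was found for 54 of the 61 widely expressed subunits, with a median of 21 CpG against 7 over all 33469 promoters. CCGGAAG was present in 31.5% of the 54, against 8.75% of all promoters, and the NRF1 motif in 27.8% against 5.58%. TATAAA was present in 5.56% against 14.2%, and CAGCTG in 13% against 15.1%. A match describes these letters only and shows no bound site.

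In Cy/Cy kidneys no member was called against the +/+ reference. The count was 0 of 71 genes, with 0% of all probes called, in limma with Benjamini-Hochberg adjustment over all probes at a threshold of 0.05. At an unadjusted p under 0.05, 12 of the 71 genes passed, beside 8.65% of all probes. The 0 depended on the normalization. The log ratios of the scanner software also gave 0 calls over all probes. With each array centred on its median in place of loess, 61 members were higher and 1 lower, with 42.9% of all probes called. The median of the 61 widely expressed subunits was then 0.68, against 0.17 for all probes. The 61 widely expressed subunits had a median log2 value of 0.07, against 0.005 for all probes, and ran from -0.14 (Ndufb5) to 0.59 (Atp5i). On the single arrays their median was -0.01 at 3 days and 0.14 at 7 days. At 3 days 52 of the 61 lay within 0.25 of the reference, and at 7 days 47 did.

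In Cy/+ kidneys 6 of the 71 genes were higher than in the reference and none was lower, where 7.86% of all probes were called (4.59% higher and 3.27% lower). The 6 were 8.45% of the members. The 61 widely expressed subunits had a median of 0.10, against 0.005 for all probes, and 46 of them were positive. With the log ratios of the scanner software 40 were positive. Their median was 0.11 at 3 days and 0.10 at 7 days, and 40 and 51 of the 61 lay within 0.25 of the reference. The call of all 6 ended with the log ratios of the scanner software, where neither a member nor any other probe was called, and without the 3-day Cy/+ array. Without the 7-day Cy/+ array 12 were higher and 2 lower. Median centring in place of loess called 66 members higher, with 49.8% of all probes called, and put the median of the 61 at 0.85, against 0.19 for all probes. In the same Cy/+ fit 3 of 6 proximal tubule markers were higher, Lrp2 (0.865), Cubn (0.51) and Aqp1 (0.40). The other 3, Slc34a1 (-0.19), Slc5a2 (-0.235) and Slc22a6 (-0.33), were negative and not called, and the median of the 6 was 0.10. Of the thick ascending limb markers 1 of 4 was lower (median -0.37), and 3 of 4 intercalated cell markers were lower (median -0.55). Both measured red cell markers were lower as well, Hbb at -1.36 ± 0.13 (SE, limma adjusted p = 0.00726) and Alas2 at -0.51 ± 0.09 (0.0297). The intercalated cell marker Slc4a1 (-1.01 ± 0.12, limma adjusted p = 0.0119) is also a red cell gene. The summed log2 level of the proximal tubule markers was 17.18 and 17.25 in Cy/+ kidneys, against 17.01 and 16.94 in the reference on those arrays. Within that sum the genes went both ways. Lrp2 had 15.83 and 15.81 at 3 and 7 days, against 14.85 and 15.05 in the reference. Slc5a2 had 15.03 and 15.36, against 15.45 and 15.41. The part of tubule or red cell makeup in the subunit values was not tested.

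Complex V held the largest of these values. Atp5o, the stalk protein that links the catalytic head to the membrane part, gave 0.45 and 0.64 in Cy/Cy kidneys and 0.60 and 0.55 in Cy/+ kidneys at 3 and 7 days. All 4 mutant arrays lay above the reference. The Cy/+ value was 0.57 ± 0.08 (SE, limma adjusted p = 0.0188), a 1.49-fold difference, and the Cy/Cy value 0.55 ± 0.08 (adjusted p = 0.27 in limma). On the arrays labelled +/+ Atp5o had -0.17 and -0.03, and it was higher in Cy/Cy (0.65 ± 0.12, limma adjusted p = 0.0155) and Cy/+ kidneys (0.67 ± 0.12, 0.014) than there. Atp5e, the epsilon subunit of the head, had 0.71 and 0.47 in Cy/Cy kidneys, 0.60 and 0.43 in Cy/+ kidneys and 1.35 and 0.70 on the arrays labelled +/+. Its Cy/+ value against the reference was 0.51 ± 0.09 (limma adjusted p = 0.0302). Against the arrays labelled +/+ the direction turned, to -0.44 ± 0.16 in Cy/Cy and -0.51 ± 0.16 in Cy/+ kidneys, neither called.

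Atp5i, the small membrane subunit e, had 0.69 and 0.50 in Cy/Cy kidneys, 0.92 and 0.31 in Cy/+ kidneys and 1.03 and 0.37 on the arrays labelled +/+. It was positive on all 6 arrays, and the Cy/+ value of 0.61 ± 0.14 just missed the threshold (limma adjusted p = 0.0502). The catalytic subunits Atp5a1 (alpha) and Atp5b (beta) had 0.09 to 0.13 and 0.14 to 0.17 on the Cy/Cy arrays, and 0.17 to 0.40 and 0.28 to 0.34 on the Cy/+ arrays. The genes of the membrane ring, Atp5g1, Atp5g2 and Atp5g3, lay between -0.08 and 0.56 on the 4 mutant arrays. Atp5g3 in Cy/+ kidneys at 3 days had the highest value of these. Over complex V the median was 0.11 in Cy/Cy and 0.28 in Cy/+ kidneys. Of its 13 widely expressed subunits, 2 were called higher in Cy/+ kidneys (15.4%, against 4.59% of all probes).

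Complex I had 2 of 31 widely expressed subunits higher in Cy/+ kidneys (6.45%, near the 4.59% of all probes), both accessory subunits. Ndufb8 had 0.33 and 0.25 in Cy/Cy kidneys and 0.47 and 0.30 in Cy/+ kidneys at 3 and 7 days. The Cy/+ value was 0.39 ± 0.08 (limma adjusted p = 0.0386). Ndufa2 had 0.16 and 0.28 in Cy/Cy and 0.48 and 0.28 in Cy/+ kidneys, and both of its probes passed in Cy/+ kidneys (0.38 and 0.40). No core subunit that carries the electron path was called. In Cy/Cy kidneys Ndufs1 had 0.03 and 0.26, and Ndufv1, which binds NADH, had -0.17 and -0.10. In Cy/+ kidneys Ndufs1 had 0.32 and 0.42 and Ndufv1 had -0.11 and -0.11, and Ndufs1 just missed the threshold (0.37 ± 0.09, limma adjusted p = 0.0502). The median over complex I was 0.04 in Cy/Cy and 0.10 in Cy/+ kidneys.

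In complex II, Sdha, the flavoprotein that oxidises succinate, had 0.35 and 0.50 in Cy/Cy kidneys and 0.49 and 0.29 in Cy/+ kidneys at 3 and 7 days. Its Cy/+ value was 0.39 ± 0.09 (limma adjusted p = 0.0455). Its partners, the iron-sulfur subunit Sdhb and the membrane anchors Sdhc and Sdhd, lay between -0.12 and 0.14 on the 4 mutant arrays. None of the 5 complex III genes was called in either mutant group, and their medians were 0.02 in Cy/Cy and 0.05 in Cy/+ kidneys. The Rieske iron-sulfur protein Uqcrfs1 had -0.04 and 0.24 in Cy/Cy kidneys and 0.09 and 0.40 in Cy/+ kidneys, so its 7-day values were the higher ones in both.

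Of the 8 widely expressed subunits of complex IV, Cox6a1 was higher in Cy/+ kidneys. It had 0.32 and 0.48 in Cy/Cy and 0.49 and 0.40 in Cy/+ kidneys, and the Cy/+ value was 0.45 ± 0.08 (limma adjusted p = 0.0295). Cox5a was uneven. It had -0.02 and 0.17 in Cy/Cy kidneys, 0.64 and 0.20 in Cy/+ kidneys, and 0.43 and -0.64 on the arrays labelled +/+. Cox7a2 had 0.04 and -0.03 in Cy/Cy kidneys and -0.45 and 0.02 in Cy/+ kidneys.

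**Figure D3:**
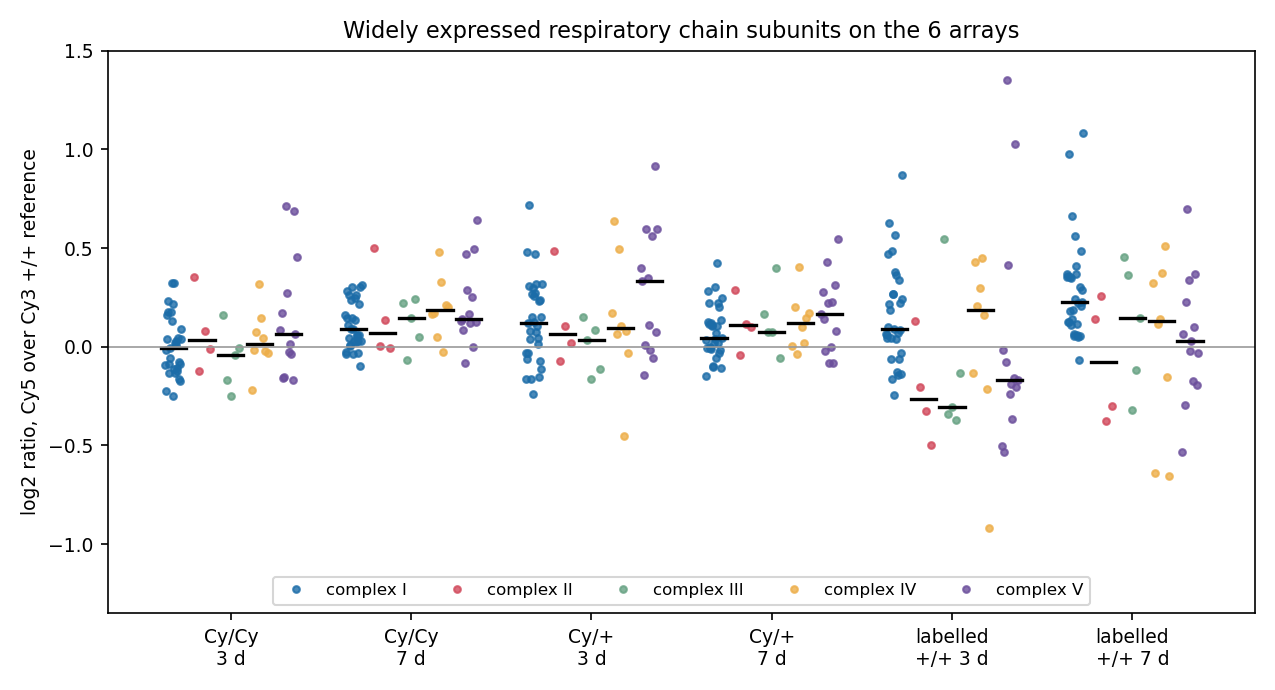
Log2 ratio of Cy5 over the Cy3 +/+ reference for the 61 widely expressed subunits on each of the 6 arrays, coloured by complex, 1 point per gene, with black bars at the complex medians. On the Cy/Cy and Cy/+ arrays no complex median passes 0.34, and the points spread most on the arrays labelled +/+. There the medians of complexes I (0.09) and IV (0.19) lie above the reference at 3 days, and those of complexes II, III and V below it.

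The subunit probes were bright, with a median at percentile 98.2 of all probes past the filter, and 48 of the 61 were in the top 5%. This is a property of probe signal and is no measure of transcript abundance. The 10 brightest were Cox6a1, Atp5i, Atp5o, Atp5f1, Atp5e, Ndufb8, Cox8a, Ndufb4, Cox6c and Sdha. Their median ratios at 3 and 7 days were 0.32 and 0.40 in Cy/Cy kidneys, 0.48 and 0.30 in Cy/+ kidneys, and 0.36 and 0.24 on the arrays labelled +/+. The other 51 had -0.02 and 0.09 in Cy/Cy kidneys, 0.08 and 0.07 in Cy/+ kidneys, and -0.01 and 0.15 on the arrays labelled +/+. All 188 probes of the array at least as bright as the dimmest of those 10 had medians of 0.34 and 0.18, 0.28 and 0.16, and 0.45 and 0.23 on the same arrays. Of the 6 genes called in Cy/+ kidneys, 5 were among the 10 brightest, Ndufa2 being the exception. Across the 61 genes Spearman's rho of ratio with brightness was 0.57 and 0.37 on the Cy/Cy arrays, 0.19 and 0.20 on the Cy/+ arrays, and 0.21 and -0.03 on the arrays labelled +/+. These coefficients are across genes that share arrays, dyes and background correction, and genes are not independent replicates.

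**Figure D4:**
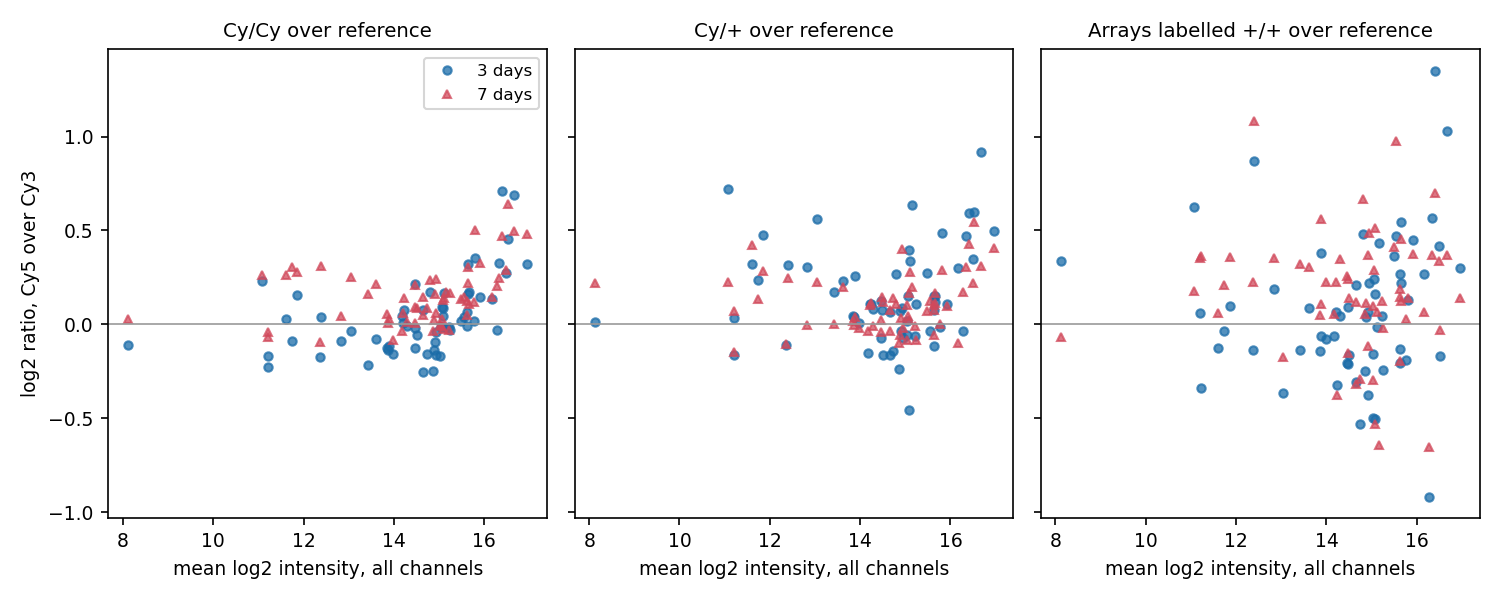
Log2 ratio of Cy5 over the Cy3 +/+ reference against mean log2 intensity over all channels for the 61 widely expressed subunits, with 3 days as circles and 7 days as triangles, in Cy/Cy, Cy/+ and on the arrays labelled +/+. The 10 brightest have medians of 0.32 and 0.40 in the Cy/Cy panel, 0.48 and 0.30 in the Cy/+ panel and 0.36 and 0.24 on the arrays labelled +/+.

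Between the mutant genotypes no member passed the test. Of the 71 genes, 0 were called between Cy/Cy and Cy/+ kidneys, with 0% of all probes called, and 0 passed at an unadjusted p under 0.05, against 2.96% of all probes. The median difference of the 61 subunits was -0.02, with values from -0.34 (Cox5a) to 0.23 (Cox7a2). The difference was -0.02 ± 0.12 for Atp5o and 0.04 ± 0.14 for Sdha. A p that misses the threshold does not show that the genotypes were alike. Using the 4 mutant arrays alone also gave 0 calls.

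On the arrays labelled +/+, 17 of the 71 genes were higher than in their reference and 6 were lower, where 45% of all probes were called (26.6% higher and 18.4% lower). The share of members called higher, 23.9%, was close to that of all probes, and the share called lower was 8.45%. The widely expressed subunits ran from -0.79 (Cox8a) to 1.03 (Atp5e), with a median of 0.09, while the skeletal muscle markers ran from 3.31 to 5.79. At 3 days 35 and at 7 days 31 of the 61 lay within 0.25 of the reference. Of the 23 calls, 7 remained under all 7 alternatives tried, those of Atp5e, Cox6a2, Cox8h, Ndufa5, Ndufb2, Ndufv3l and Uqcrb.

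In complex I, 26 of 31 widely expressed subunits were positive on the arrays labelled +/+ set against their reference, and the median was 0.20. Of the 31, 8 were called higher (25.8%, near the 26.6% of all probes) and 0 lower. Over all complexes 41 of the 61 were positive with loess, 33 with the software's log ratios and 61 with median centring. Positive on both arrays labelled +/+ were 50.8% of the 61, against 40.9% of all probes. Ndufv3l, an accessory subunit of the NADH-binding arm, had 0.04 at 3 days and 0.31 at 7 days in Cy/Cy and 0.32 and 0.25 in Cy/+ kidneys, against 0.87 and 1.08 on the arrays labelled +/+. On those arrays it was higher than in the reference by 0.98 ± 0.11 (SE, limma adjusted p = 0.000708). Ndufa5 had 0.47 and 0.97, and its value was 0.72 ± 0.13 (limma adjusted p = 0.00637). Ndufb2, at 0.57 ± 0.09, and Ndufb7, at 0.47 ± 0.10, were called higher too, as were Ndufb8 (0.47), Ndufb9 (0.39), Ndufs7 (0.35) and Ndufv2 (0.27). The lowest of the complex was Ndufb5, at -0.10.

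The falls lay in complexes II, IV and V. The membrane anchors of complex II, Sdhc (-0.35 ± 0.08, limma adjusted p = 0.0134) and Sdhd (-0.40 ± 0.09, 0.0129), were lower on both arrays labelled +/+, while Sdha, with 0.13 and 0.14, was not called. In complex III the small subunit Uqcrb was higher (0.50 ± 0.08, limma adjusted p = 0.00361) and the core protein Uqcrc2 had the lowest value (-0.31). In complex V the alpha subunit Atp5a1 had -0.51 at 3 days and -0.53 at 7 days and was lower (-0.52 ± 0.09, limma adjusted p = 0.00517), as was the gamma subunit Atp5c1 (-0.41 ± 0.12, 0.0322). Atp5e (1.03 ± 0.16, limma adjusted p = 0.00357), Atp5i (0.70 ± 0.20, 0.0323) and Atp5f1 (0.38 ± 0.08, 0.0126), which encodes the b subunit, were higher. In complex IV Cox6c was higher (0.41 ± 0.09, limma adjusted p = 0.0104) and Cox8a lower. Median centring in place of loess turned the sign of all 5 of these falls among true subunits. It gave 0.26 for Atp5a1, 0.34 for Atp5c1, 0.18 for Cox8a, 0.31 for Sdhc and 0.39 for Sdhd.

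Set against the arrays labelled +/+, Cy/Cy kidneys had 4 members higher and 5 lower, where 28.9% of all probes were called (10.6% higher and 18.4% lower). Those higher were Cox8a, Atp5o, Atp5a1 (0.63 ± 0.13, limma adjusted p = 0.019) and Sdhc (0.46 ± 0.11, 0.0354). Those lower were Cox8h, Cox6a2, Ndufv3l (-0.80 ± 0.14, limma adjusted p = 0.0107), Ndufa5 (-0.63 ± 0.15, 0.0288) and Cox4i2. Leaving out either Cy/Cy array left 0 higher and 2 lower, and leaving out the 3-day array labelled +/+ gave 8 lower. Cy/+ kidneys had 9 members higher and 5 lower, where 29.6% of all probes were called (11% higher and 18.6% lower). The 5 lower bore the same names as in Cy/Cy kidneys. Beside the genes higher in Cy/Cy kidneys, Atp5c1 (0.41), Atp5g3 (0.66), Sdhd (0.46), Uqcrfs1 (0.49) and the doubtful Cox6b (1.32) were higher. Without the 3-day Cy/+ array 0 were higher and without the 7-day one 3, each with 2 lower, and without the 3-day array labelled +/+ 9 were lower. Only Cox6a2 and Cox8h remained called under all 8 alternatives in both comparisons. Both comparisons use the same 2 arrays labelled +/+.

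Age was compared within the Cy/Cy pool, the Cy/+ pool and the reference, using channel intensities and leaving out the Cy5 channels labelled +/+. The reference values came partly from the same spots as the mutant values, so the 3 pools are not independent repeats. At 7 days 2 of the 71 genes were lower than at 3 days and 0 were higher, where 8.11% of all probes were called (4.64% higher and 3.48% lower). Sdhb had log2 intensities of 14.29 at 7 days and 14.65 at 3 days in Cy/Cy kidneys, and 14.21 and 14.63 in Cy/+ kidneys. In the reference they were 14.24 at 7 days and 14.71 at 3 days. All 3 pools were lower at 7 days, by -0.42 ± 0.07 (SE, limma adjusted p = 0.031). The coupling factor Atp5s fell by 0.35 on the log2 scale (SE 0.07, limma adjusted p = 0.038), with differences of -0.31, -0.38 and -0.37 in the Cy/Cy, Cy/+ and reference pools. Both calls ended with the software's signals, with the reference read only from the arrays labelled +/+, and without the Cy/Cy pool or the reference. All 3 arrays of an age were on 1 slide, so age and slide cannot be told apart.

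No other gene passed the test for age by its brightest probe. The median 7-day minus 3-day difference of the 61 was 0.06 in Cy/Cy, -0.06 in Cy/+ and -0.06 in the reference pool, and over all probes it was 0.01 in each. Lower at 7 days in all 3 pools were 12 of the 61 (19.7%, against 24% of all probes), and 7 were higher in all 3 (11.5%, against 27.7%). In complex V, 11 of 13 subunits were higher at 7 days in the Cy/Cy pool, but 4 in the Cy/+ pool and 5 in the reference. Complex III had a median of 0.02 in Cy/Cy, 0.00 in Cy/+ and -0.25 in the reference pool. By complex, the highest and lowest fitted values were 0.12 for Ndufs5b and -0.31 for Ndufc2 in complex I, and 0.07 for Sdha and -0.42 for Sdhb in complex II. They were 0.17 for Uqcrb and -0.22 for Uqcrc1 in complex III, 0.16 for Cox7a2 and -0.25 for Cox8a among the widely expressed genes of complex IV, and 0.28 for Atp5i and -0.10 for Atp5o in complex V. The Uqcrb value is that of its brightest probe, and its 3 probes ran from -0.23 to 0.17. Cox8h stood at -1.07 ± 0.45 (limma adjusted p = 0.18), with -1.19 in the Cy/Cy, -2.35 in the Cy/+ and 0.33 in the reference pool, which includes the brighter Cy3 channels of the arrays labelled +/+. In the same fit Ucp1 stood at -2.38 and Cox6a2 at -0.11.

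**Figure D5:**
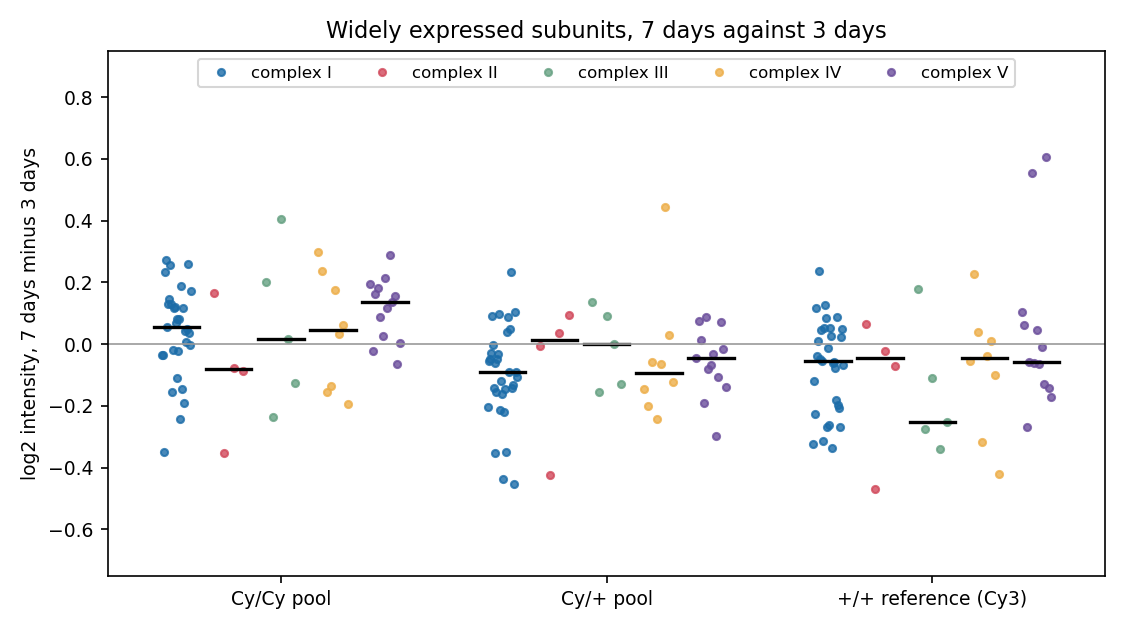
Difference in log2 intensity, 7 days minus 3 days, for the 61 widely expressed subunits in the Cy/Cy pool, the Cy/+ pool and the Cy3 +/+ reference, coloured by complex, 1 point per gene, with black bars at the complex medians. The medians over all 61 are 0.06, -0.06 and -0.06, and Sdhb is the lowest complex II point in each pool, at -0.35, -0.42 and -0.47.

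Across the 61 subunits the 7-day and 3-day ratios had Pearson's r of 0.75 in Cy/Cy, 0.67 in Cy/+ kidneys and 0.68 on the arrays labelled +/+. Over all probes r was 0.28, 0.53 and 0.90 in the same order. These are descriptions across genes that share a pool type, a dye and a probe. The SD of the subunit ratios was 0.20 and 0.16 on the 3-day and 7-day Cy/Cy arrays, 0.26 and 0.15 on the Cy/+ arrays, and 0.39 and 0.33 on the arrays labelled +/+.

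Genes with several probes showed how far 1 probe can be read. In Cy/+ kidneys the brightest Atp5g2 probe had -0.01 and the dimmer one was called lower, at -0.35 (limma adjusted p = 0.0487). On the arrays labelled +/+ the 3 Uqcrb probes ran from -0.25 to 0.50, and only the brightest was called. The dimmer Ndufc2 probe was called lower at 7 days (-0.43) while the brightest, at -0.31, was not. The 2 Ndufs8 probes agreed in sign against the reference in Cy/Cy (0.02 and 0.11) and Cy/+ kidneys (0.14 and 0.19).

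Among the names that are not subunits, Ndufaf1 was higher on the arrays labelled +/+ (0.47 ± 0.11, limma adjusted p = 0.0152). Cox7a2l had -0.08 and -0.21 in Cy/Cy kidneys and -0.14 and -0.12 in Cy/+ kidneys, and was not called. Cox4nb lay between 0.07 and 0.18 on all 6 arrays. The probe named Cox6b had -0.08 and 0.07 in Cy/Cy kidneys, 0.92 and 0.21 in Cy/+ kidneys, and -1.09 and -0.41 on the arrays labelled +/+. Which transcript it reads was not tested. Cox6c1 was well above background in no mutant Cy5 channel.

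Genes that feed or regulate the chain were taken from 8 lists with 78 measured genes. Against their own reference, 0 were called in Cy/Cy kidneys, where 0% of all probes were called. In Cy/+ kidneys 6 were higher and 2 lower, where 4.59% of all probes were higher and 3.27% lower. Those higher were the complex V assembly factor Atpaf1 (0.71 ± 0.10, limma adjusted p = 0.0195), cytochrome c, Cycs (0.63 ± 0.09, 0.0177), the pyruvate dehydrogenase subunit Pdha1 (0.50 ± 0.08, 0.0276), the citrate cycle enzymes Idh3a (0.49) and Dlst (0.36), and Gabpa (0.35), an ETS factor. Those lower were the outer membrane pore Vdac1 (-0.47 ± 0.08, limma adjusted p = 0.0244) and the mitochondrial RNA polymerase Polrmt (-0.42 ± 0.09, 0.0435). The citrate cycle list had 2 of 13 higher with a median of 0.10, and the assembly factors 1 of 17 with a median of -0.02. On the arrays labelled +/+, 20 of the 78 were higher and 17 lower, shares near the 26.6% and 18.4% of all probes. The heart and muscle carrier Slc25a4 was higher there (1.1 ± 0.12, limma adjusted p = 0.000661) and the carrier Slc25a5 lower (-0.78 ± 0.10, 0.00128). Ppargc1a, a coactivator of mitochondrial genes, was lower (-1.68 ± 0.11, limma adjusted p = 9.5e-05). Ppargc1b, on the same list, was higher (0.99 ± 0.09, limma adjusted p = 0.000354). Of the 12 measured genes of that list, 1 was higher and 3 were lower. At 7 days against 3 days 3 of the 78 were higher, Pdp2 (0.49), Vdac1 (0.39) and Yy1 (0.39), and Tmem70 (-0.42) was lower. Over all probes 4.64% were higher and 3.48% lower.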

How the data were processed

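RNA labelled as that of pooled rat kidneys was measured on 6 Agilent 2-colour oligonucleotide arrays, and groups follow the genotype and age in the labels. The deposited files are scanner output of Agilent Feature Extraction 9.5.1.1 with protocol GE2-v5_95, per the file headers, while the labels name an older software version. The authors' files give each spot's mean intensity, local background, processed intensity and the software's log10 ratio of Cy5 over Cy3, from which log2 ratios were taken as an alternative. The deposited value table repeats these log10 ratios and was used for that check only. Coordinates are those of rn3, per the file headers.

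The mean intensity was corrected by normexp (offset 50) and normalized by loess within each array, with control and flagged spots given no weight, in limma 3.58.1 (R 4.3.3). Channel levels were also scaled between arrays (Aquantile). Spots of a probe were averaged. Probes well above background in a channel on at least 2 arrays were tested with lmFit and eBayes, and p-values were adjusted by Benjamini-Hochberg over all of them at a threshold of 0.05. Mutant pools were tested against 0 in a fit of the 4 mutant arrays, and arrays labelled +/+ in a fit of all 6. Genotypes were compared with age as a term, and ages with the pool as a block. Per the file headers the 3 arrays of an age share 1 slide, and genotype goes with the position on it, so neither can be told apart from its batch. The number of arrays limits the precision.

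Genes are named as the array names them. Current names came from the RefSeq gene table by accession (48 probes), symbol (28) or synonym (5), and 79 probes have coordinates. Named with values were the tissue-type isoforms and their counterparts, the members called in each comparison, and the extremes of each complex for age and for the arrays labelled +/+. Other members are given to show a complex. Members and gene lists were chosen with earlier results of these data known. Fits were tested on simulated data. Alternatives were the software's log ratios, median centring, scaling between arrays, no filter, 1 probe per gene, and leaving out each array.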

Additional observations from a re-analysis of the deposited data

How the results depend on the processing

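Median centring moved the median of all probes by 0.17 (Cy/Cy), 0.19 (Cy/+) and 0.18 (arrays labelled +/+) against the reference, and that of the 61 subunits to 0.68, 0.85 and 0.79. Members called higher against the reference were then 61 in Cy/Cy (0 with loess), 66 in Cy/+ (6) and 58 on the arrays labelled +/+ (17), with 1, 0 and 1 lower. Cy/Cy over the arrays labelled +/+ had 1 higher. Atp5a1 (0.26), Atp5c1 (0.34), Cox8a (0.18), Sdhc (0.31) and Sdhd (0.39) reversed on the arrays labelled +/+. The software's log ratios called 0 members higher in Cy/+ and 8 higher on the arrays labelled +/+. Against those arrays they called 3 lower in Cy/Cy and 2 lower in Cy/+ (5 each with loess). Scaling between arrays left 8 higher and 2 lower on the arrays labelled +/+. For age, the software's signals and a reference from the arrays labelled +/+ only each gave 0 lower, and no block for the pool gave 1. Each cause was not tested.

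Leaving out 1 array or pool gave 0 to 12 members higher and 0 to 2 lower in Cy/+ against the reference, and 15 to 20 higher and 4 to 7 lower on the arrays labelled +/+. Against those arrays, Cy/Cy had 0 to 5 higher and 2 to 8 lower, and Cy/+ 0 to 8 higher and 2 to 9 lower. Age had 0 to 2 lower. Cy/Cy kept 0 calls against the reference, and Cy/Cy against Cy/+ kept 0 under all 10 alternatives. Calls over all probes were 58.4% higher in Cy/+ (80.2% with median centring), 59.1% on the arrays labelled +/+ (37.5% with software ratios, 75.1% with median centring), 36.5% in Cy/Cy (55.6% with software ratios) and 37.1% in Cy/+ (55.9%) over the arrays labelled +/+. Calls over all probes also changed in number, from 0 to 13276 for Cy/Cy against the reference with median centring, and for Cy/+ against it from 2431 to 15402 with median centring and 0 with software ratios. On the arrays labelled +/+ 13917 became 8406 with scaling, and for age 2509 became 0 with software signals, 593 with the reference from the arrays labelled +/+ and 559 without the block.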
